A study of Mus musculus with 11 samples.

Results

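The 7 genes described here encode the collagens that build the thin fibrils of hyaline cartilage: Col2a1, Col9a1, Col9a2, Col9a3, Col11a1, Col11a2 and Col27a1. They were chosen by name, not by measured values, though earlier results of these data were known. They come from the 55421 genes counted in each of 11 libraries of mouse knee cartilage. All 7 were among the 18125 genes that passed the filter on low counts. Of them, Col27a1 alone passed the test, and in 1 of the 3 comparisons: it was 2.99-fold higher in the c-FosDCh DMM group, as labelled, than in the c-FosWT DMM group. That 1 of 7 stands beside 14.4% of all genes tested, and the call was lost in 11 alternative fits, among them the fit of the DMM groups alone (edgeR adjusted p = 0.0846) and the fit with a marrow covariate (edgeR adjusted p = 0.389). Across the 11 libraries Col2a1, Col9a2 and Col9a3 varied together, and Col11a1 and Col11a2 varied least of the 7. Col9a1 had the lowest correlations with the other members.

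Type II collagen, 3 copies of the chain from Col2a1, is the bulk of the cartilage fibril. Type XI collagen, whose chains include the products of Col11a1 and Col11a2 and which is also a fibrillar collagen, lies within the fibril and limits its width. Type IX collagen is a fibril-associated collagen, a trimer of 1 chain each from Col9a1, Col9a2 and Col9a3 that is cross-linked to the fibril surface, and type XXVII collagen, a trimer of the Col27a1 chain, is a fibrillar collagen best known from growing cartilage. Sox9, with Sox5 and Sox6, is the transcription factor known to switch on most of these genes in chondrocytes.

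Poly(A) RNA was sequenced from articular cartilage of 14-week-old C57BL/6 mice, 4 weeks after surgery to destabilize the medial meniscus of the knee (DMM), which is done to bring on osteoarthritis. Of the 3 groups, the first comprised 4 contralateral knees of c-FosWT mice, the second 3 DMM knees of c-FosWT mice, and the third 4 DMM knees of mice labelled c-FosDCh, read here as lacking c-Fos in chondrocytes. The promoter or Cre line behind the c-FosDCh label is not stated in the sources used. The 11 libraries came from 8 animals, of which 3 c-FosWT animals gave both knees, and contralateral c-FosDCh knees were not analysed here.

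Gene counts per library ranged from 13593454 to 18280558. Levels of a gene are given as CPM, counts per 1000000 of the library total after TMM scaling, and ± is the SD over libraries of a group unless an SE is named. Fos, the gene in the genotype label, lay between 9.01 and 14.1 CPM in the 3 c-FosWT DMM libraries and between 10.9 and 33.04 CPM in the 4 with the c-FosDCh label. Fos was thus not lower under that label (log2 fold change 0.98 ± 0.35, SE, edgeR adjusted p = 0.0736), and which part of the gene is deleted is not stated in the sources used, so the group is called by its label throughout. Summed chondrocyte markers (13 genes, none at 0) ranged from 13727 to 33597 CPM in contralateral, 3008 to 9964 in c-FosWT DMM and 16499 to 74580 in libraries labelled c-FosDCh. Summed erythroid markers (9 genes, none at 0) ranged from 2292 to 6655, 7585 to 12490 and 447 to 4262 CPM in the same order, and summed granulocyte markers (10 genes, none at 0) from 3047 to 9643, 7210 to 13542 and 296 to 10473 CPM. The lowest chondrocyte sum belonged to c-FosWT DMM library 2, and the highest chondrocyte and lowest marrow sums to c-FosDCh DMM library 4. Prg4 alone made up 38726.5 CPM of that highest chondrocyte sum. Of the 13 chondrocyte markers, 9 had a log2 fold change above 0 between libraries labelled c-FosDCh and c-FosWT DMM. Of these, 7 were called higher in edgeR's test, beside 10.6% of all genes tested. Matn3 (-5.04), Matn1 (-2.97), Epyc (-1.88) and Cnmd (-0.50) were below 0 and did not pass, so the sum does not speak for each marker. Contralateral library 2 and c-FosWT DMM library 1 held the most muscle RNA, with summed muscle markers of 4101 and 6566 CPM. In bulk tissue, fewer chondrocytes and less RNA per chondrocyte cannot be told apart, and this holds for every level below.

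The windows before the start sites are shown for the genes whose patterns the results turn on: Col27a1, which passed the test, Col9a1, which varied more than the other type IX chains and has a pair of start sites, and the type XI pair, whose mean ratio differed little between groups. Sequences are from RefSeq (GRCm38.p6), plus strand, and each covers the bases before the start site that lie outside GENCODE M21 exons. The windows of Col27a1 and of the second Col9a1 start lie in introns of the GENCODE M21 gene, and the others lie before its first exon. Capitals mark a match to a GC box (GGGCGG, or CCGCCC on the other strand) or a TATA motif (TATAAA).
Col27a1, chr4:63215162-63215411: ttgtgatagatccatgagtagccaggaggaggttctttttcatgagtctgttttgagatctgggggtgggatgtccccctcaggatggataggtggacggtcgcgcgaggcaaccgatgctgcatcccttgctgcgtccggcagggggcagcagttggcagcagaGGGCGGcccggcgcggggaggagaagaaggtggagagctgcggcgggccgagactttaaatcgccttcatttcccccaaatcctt
Col9a1 start 1, chr1:24177360-24177609: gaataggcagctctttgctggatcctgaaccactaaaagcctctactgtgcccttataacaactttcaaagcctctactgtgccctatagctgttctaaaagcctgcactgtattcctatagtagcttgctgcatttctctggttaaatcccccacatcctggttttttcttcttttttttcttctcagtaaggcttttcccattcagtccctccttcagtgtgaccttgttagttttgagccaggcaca
Col9a1 start 2, chr1:24194953-24195186: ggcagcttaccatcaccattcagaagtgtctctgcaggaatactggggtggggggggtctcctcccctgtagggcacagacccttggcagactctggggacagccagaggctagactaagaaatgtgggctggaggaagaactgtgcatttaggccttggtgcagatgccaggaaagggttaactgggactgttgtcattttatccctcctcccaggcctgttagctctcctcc
Col11a1, chr3:114030290-114030539: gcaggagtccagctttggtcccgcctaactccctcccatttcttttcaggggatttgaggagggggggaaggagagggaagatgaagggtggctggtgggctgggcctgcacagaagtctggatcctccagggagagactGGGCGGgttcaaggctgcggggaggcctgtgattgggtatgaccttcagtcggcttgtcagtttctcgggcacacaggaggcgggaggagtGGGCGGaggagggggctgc
Col11a2, chr17:34038888-34039137: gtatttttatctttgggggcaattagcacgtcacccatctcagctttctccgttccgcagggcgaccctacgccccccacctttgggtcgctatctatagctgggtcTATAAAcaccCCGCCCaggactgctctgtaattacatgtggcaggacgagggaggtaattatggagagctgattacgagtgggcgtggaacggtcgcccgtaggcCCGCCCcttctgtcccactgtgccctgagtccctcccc

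Motifs were searched on both strands in windows of 300 bases, 250 before and 50 after the start, which RefSeq gave for 5 of the 7 genes with 6 start sites (Col2a1 and Col9a3 had no entry). The letters of an AP-1 site (TGANTCA), the motif bound by c-Fos with its Jun partners, were in none of the 6 windows, and in 7.81% of 32851 promoter windows of the mouse genome. Both Sox letter strings searched, AACAAT and ACAAAG, were also absent from the 6 windows, against 10.72% and 18.71% of all windows. A GC box was present for Col27a1, Col9a2, Col11a1 and Col11a2 (35.66% of all windows) and in neither Col9a1 window, and TATAAA was found for Col11a2 (13.62% of all windows). AACAAT and ACAAAG share the letters ACAA. A match is a description of letters and no match says only that these letters are not in this window.

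Col2a1 lies at chr15:97975602-98004695 on the minus strand (GRCm38) and was, per length, the most abundant of the 7 genes in each library. Contralateral libraries 1 to 4 had 12288, 4444, 7677 and 6617 CPM. In c-FosWT DMM libraries 1 to 3 it was 6277, 2329 and 6348 CPM. In DMM libraries labelled c-FosDCh 1 to 4 it was 6082, 5294, 10735 and 11705 CPM. All 3 groups overlapped, with c-FosWT DMM library 2 lowest and contralateral library 1 highest. In edgeR's quasi-likelihood test, with Benjamini-Hochberg adjustment over all genes tested, the log2 fold change between c-FosWT DMM and contralateral was -0.64 ± 0.47 (SE, adjusted p = 0.450). Between libraries labelled c-FosDCh and c-FosWT DMM it was 0.76 ± 0.47 (SE, edgeR adjusted p = 0.239), so neither difference passed.

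**Figure D1:**
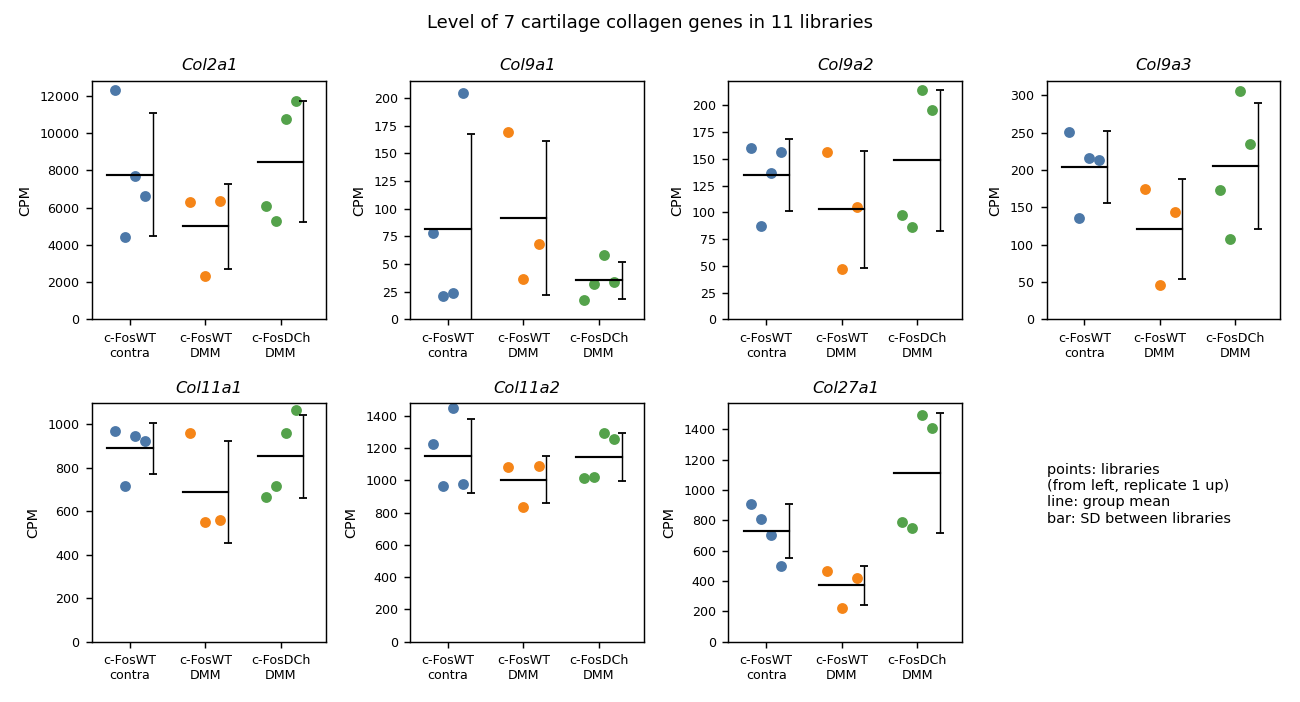
CPM (TMM-scaled, linear axis from 0) of the 7 cartilage collagen genes in each of the 11 libraries, 1 panel per gene; points are libraries, lines are group means and error bars are 1 SD, drawn down to 0 at most. Col27a1 is the gene whose c-FosWT DMM libraries (224 to 467 CPM) lie below all libraries of both other groups, and Col9a1 has the widest range (17.9 to 205 CPM).

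The type IX genes are Col9a1 (chr1:24177610-24252684), Col9a2 (chr4:121039385-121055322) and Col9a3 (chr2:180597790-180622189), all on the plus strand. Col9a2 had 160, 87.2, 137 and 156 CPM in contralateral libraries 1 to 4. The c-FosWT DMM libraries had 157, 47.2 and 105 CPM, and those labelled c-FosDCh had 97.5, 86.6, 214 and 196 CPM. For Col9a2, as for Col2a1, c-FosWT DMM library 2 was lowest and the groups overlapped; libraries 3 and 4 labelled c-FosDCh were highest for Col9a2. Col9a3 had 250, 136, 216 and 213 CPM in contralateral libraries. The c-FosWT DMM libraries had 175, 46.2 and 144 CPM, and those labelled c-FosDCh had 173, 107, 306 and 234 CPM. Library 2 was again lowest among the c-FosWT DMM libraries, and the groups overlapped. Between c-FosWT DMM and contralateral the log2 fold change was -0.39 ± 0.44 (SE, edgeR adjusted p = 0.607) for Col9a2 and -0.75 ± 0.45 (SE, edgeR adjusted p = 0.368) for Col9a3. Between libraries labelled c-FosDCh and c-FosWT DMM the values were 0.53 ± 0.44 (SE, edgeR adjusted p = 0.368) and 0.76 ± 0.45 (SE, edgeR adjusted p = 0.226). Col9a3 shares 234 exon bases, 6.07% of its exons, with Tcfl5 on the opposite strand. Tcfl5 had 820 counts over all libraries against 31941 for Col9a3, and the sources used do not state which strand was counted.

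Col9a1 differed from its partner chains in where it was high and low. It is known to have a pair of start sites that give a long and a short form of the protein, and the gene counts pool both. Contralateral libraries 1 to 4 had 77.8, 20.8, 23.7 and 205 CPM, so the group spanned nearly the whole range of the study. The c-FosWT DMM libraries had 170, 36.4 and 68.3 CPM, and those labelled c-FosDCh had 17.9, 32.0, 58.0 and 33.8 CPM. The groups overlapped, although no library labelled c-FosDCh reached the level of c-FosWT DMM libraries 1 and 3. The log2 fold change was 0.16 ± 0.79 (SE, edgeR adjusted p = 0.919) between c-FosWT DMM and contralateral and -1.37 ± 0.80 (SE, edgeR adjusted p = 0.213) between libraries labelled c-FosDCh and c-FosWT DMM. The first changed sign with the libraries used: without contralateral library 2 and c-FosWT DMM library 1, the muscle-rich pair, it was -0.93. Each library held at least 245 Col9a1 counts. The SD of Col9a1 over the 11 libraries was 1.17 on the log2 CPM scale, larger than that of 93.5% of the genes tested, against 0.64 for Col9a2 and 0.75 for Col9a3.

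Per kilobase of merged exons, Col9a1 made up 11.6, 6.07, 4.46 and 27.7% of the type IX RNA in contralateral libraries 1 to 4. The share was 25.9, 20.8 and 15.9% in c-FosWT DMM libraries and 4.41, 10.2, 7.16 and 5.10% in libraries labelled c-FosDCh. All 4 shares in libraries labelled c-FosDCh lay below all 3 in c-FosWT DMM libraries, while the contralateral libraries spanned both. On this length Col9a1 was the scarcest type IX chain in every library; by the longest coding transcript it equalled Col9a2 in contralateral library 4, at 53.5 CPM per kb each. Per merged exons, Col9a2 and Col9a3 each made up 34.5 to 56.2% of the sum.

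**Figure D2:**
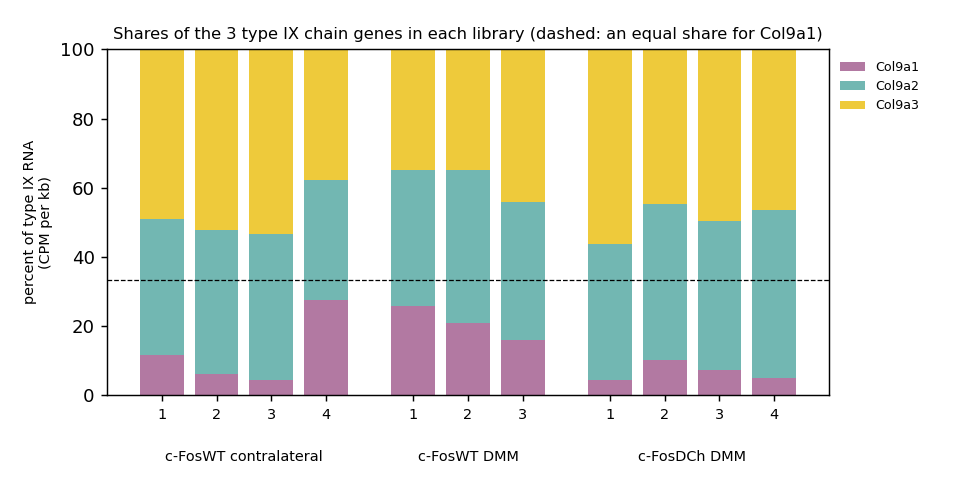
Share of each type IX chain in the summed type IX RNA of a library (percent, CPM per kilobase of merged exons), as 1 stacked bar per library in the 3 groups; the dashed line marks an equal share for Col9a1. The Col9a1 part is 15.9 to 25.9% in c-FosWT DMM libraries and 4.41 to 10.2% in libraries labelled c-FosDCh.

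The type XI genes were the steadiest of the 7. Col11a1 (chr3:114030540-114220718, plus strand) had 969, 717, 946 and 924 CPM in contralateral libraries. In c-FosWT DMM knees it had 959, 551 and 557 CPM, and in those labelled c-FosDCh 664, 718, 959 and 1065 CPM. Col11a2 (chr17:34039437-34066685, plus strand) had 1224, 966, 1446 and 977 CPM in contralateral libraries. In c-FosWT DMM knees it had 1085, 836 and 1089 CPM, and in those labelled c-FosDCh 1013, 1021, 1291 and 1259 CPM. The highest library was 1.93 times the lowest for Col11a1 and 1.73 times for Col11a2, against 5.28 times for Col2a1, and the groups overlapped for both. In edgeR's test the log2 fold changes of Col11a1 were -0.37 ± 0.25 (SE, c-FosWT DMM against contralateral, adjusted p = 0.414) and 0.31 ± 0.25 (SE, labelled c-FosDCh against c-FosWT DMM, adjusted p = 0.363). Those of Col11a2 were -0.20 ± 0.20 (SE, edgeR adjusted p = 0.565) and 0.19 ± 0.20 (SE, edgeR adjusted p = 0.476). The SD of the log2 level exceeded that of 44.6% of genes tested for Col11a1 and of 27.0% for Col11a2, so Col11a2 was steadier than most genes in these libraries.

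Col27a1 (chr4:63214004-63334991, plus strand) had 907, 809, 707 and 497 CPM in contralateral libraries 1 to 4. The c-FosWT DMM libraries had 467, 224 and 422 CPM, and those labelled c-FosDCh 788, 750, 1497 and 1406 CPM. The 3 c-FosWT DMM libraries were below all others, and libraries 3 and 4 labelled c-FosDCh were above all others. Between libraries labelled c-FosDCh and c-FosWT DMM, Col27a1 was higher by 1.58 ± 0.36 on the log2 scale (SE, edgeR adjusted p = 0.0332), that is 1110 ± 396 (n = 4) against 371 ± 130 CPM (n = 3). Between c-FosWT DMM and contralateral the groups did not overlap either, but the value of -0.98 ± 0.35 (SE, edgeR adjusted p = 0.192) did not pass. Against contralateral, libraries labelled c-FosDCh had a value of 0.61 ± 0.32 (SE, edgeR adjusted p = 0.597), with overlapping groups.

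The Col27a1 call depended on the fit. With only the DMM groups fitted the log2 difference was as large but did not pass (1.59 ± 0.39, SE, edgeR adjusted p = 0.0846), as without contralateral library 1 (1.56, edgeR adjusted p = 0.0572) or 2 (1.56, edgeR adjusted p = 0.0505). Its log2 level had a Pearson r of -0.80 with the marrow score (erythroid and granulocyte markers, averaged as log2 CPM) over 11 libraries, 6 of which came from the 3 animals with both knees. With the marrow score as a covariate the difference was 0.97 ± 0.36 (SE, edgeR adjusted p = 0.389), and without libraries 3 and 4 labelled c-FosDCh, which held the least marrow RNA of that group, it was 1.05 ± 0.31 (SE, edgeR adjusted p = 0.172). Without c-FosWT DMM library 2, the lowest, it was 1.30 (edgeR adjusted p = 0.143). DESeq2 (1.56, adjusted p = 0.00035) and limma-voom (1.59, adjusted p = 0.032) called it as well.

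An intron of Col27a1 holds the microRNA gene Mir455, on the same strand, and the microRNA is known from cartilage. Its mature arms are shown for their place in the only member that passed the test, with the seed (bases 2 to 8) in capitals. They lie at chr4:63256867-63256888 and chr4:63256904-63256924 (plus strand, RefSeq, GRCm38.p6).
mmu-miR-455-5p: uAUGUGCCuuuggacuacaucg
mmu-miR-455-3p: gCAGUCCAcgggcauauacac
The gene entry Mir455 had 318 counts over the 11 libraries, against 131813 for Col27a1. Poly(A) libraries do not capture mature microRNAs, so these counts say nothing about either arm.

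Set beside the whole table, the number of members that passed was near the background. Between c-FosWT DMM and contralateral, edgeR's quasi-likelihood test called 0 of 7 members and 0 of 18125 genes (0%), in either direction. At an unadjusted p under 0.05 the counts were 1 member, Col27a1, and 3605 genes. DESeq2 called 0 members and 4.98% of genes, and limma-voom 0 members and 0% of genes. Groups did not overlap for 1 member, Col27a1, and for 23.1% of genes.

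Between DMM libraries labelled c-FosDCh and c-FosWT DMM, edgeR called 1 of 7 members, Col27a1, and 14.4% of genes (10.6% higher and 3.79% lower). DESeq2 and limma-voom called the same member, with 29.6% and 19.3% of genes. Groups did not overlap for 1 member, again Col27a1, and for 33% of genes. The median log2 fold change of the 7 members was 0.53, with 6 of 7 above 0, and the median of all genes tested was -0.01.

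Between DMM libraries labelled c-FosDCh and contralateral c-FosWT libraries, edgeR called 0 of 7 members and 0% of genes. At an unadjusted p under 0.05 the counts were 0 members and 1512 genes. DESeq2 called 0 members and 0.226% of genes, limma-voom called 0 members and 0% of genes, and groups did not overlap for 0 members and 4.4% of genes. The median log2 fold change of the members was 0.01. The values of Col2a1 (0.12 ± 0.43), Col9a2 (0.14 ± 0.40), Col9a3 (0.01 ± 0.41), Col11a1 (-0.06 ± 0.23) and Col11a2 (-0.01 ± 0.18) were each smaller than their SE, and that of Col9a1 was -1.21 ± 0.75 (edgeR adjusted p = 0.615). This comparison mixes genotype and surgery, and it shares libraries with each of the others.

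**Figure D3:**
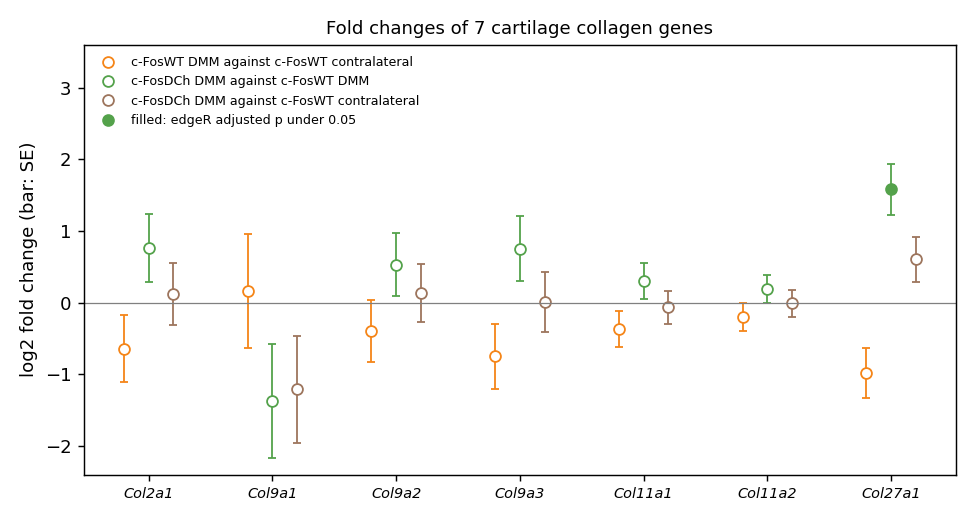
Log2 fold change (edgeR, bars are 1 SE) of the 7 cartilage collagen genes in the 3 comparisons, which share libraries. The filled point is the called one, Col27a1 between libraries labelled c-FosDCh and c-FosWT DMM (1.58), and Col9a1 has the widest errors (0.75 to 0.80).

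In the 3 animals that gave both knees, the DMM knee could be set against its own contralateral knee. The log2 difference (DMM minus contralateral) was below 0 in 3 of 3 animals for Col27a1, at -0.96, -1.85 and -0.23, and for Col9a3, at -0.52, -1.55 and -0.57. Col2a1 (-0.97, -0.93 and -0.06), Col9a2 (-0.03, -0.88 and -0.58) and Col11a1 (-0.01, -0.38 and -0.73) were also below 0 in each. Col11a2 (-0.17, -0.21 and 0.16) and Col9a1 (1.13, 0.80 and -1.58) were not. The animal with c-FosWT DMM library 2 had the largest drop for Col27a1, Col9a3, Col9a2 and Col11a2. With 3 pairs an exact two-sided sign-flip test cannot give a p below 0.25, the value it gave for each of the 5 genes below 0 in every animal.

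Per kilobase of merged exons, Col2a1 stood far above the others in all groups, with 839 ± 358, 539 ± 249 and 915 ± 350 CPM per kb in contralateral (n = 4), c-FosWT DMM (n = 3) and labelled c-FosDCh libraries (n = 4). Col11a2 came next (168 ± 33.3, 146 ± 21.1 and 167 ± 21.8 CPM per kb), and the ranges of Col2a1, Col11a2 and the next gene did not overlap within any group. Below these, neighbours in the order overlapped, except that Col9a2 stood clear of Col9a1 in labelled c-FosDCh libraries. Col11a1 had 69.8 ± 9.11, 54.1 ± 18.33 and 66.8 ± 15.0 CPM per kb, Col9a3 52.9 ± 12.6, 31.5 ± 17.4 and 53.2 ± 22.0, and Col9a2 43.7 ± 10.8, 33.2 ± 17.7 and 48.0 ± 21.3. Col27a1 changed its place: with 56.1 ± 13.5, 28.5 ± 9.95 and 85.3 ± 30.4 CPM per kb it ranked 4 of 7 in contralateral, 6 in c-FosWT DMM and 3 in labelled c-FosDCh libraries. Divided by the longest coding transcript instead, it ranked 4, 4 and 3. Col9a1 was last in each group (16.1 ± 17.0, 18.0 ± 13.7 and 6.99 ± 3.29 CPM per kb).

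The 7 genes together made up 15.2 ± 6.19% of the RNA of the 44 listed collagen genes per length in contralateral, 9.83 ± 3.44% in c-FosWT DMM and 15.6 ± 7.47% in labelled c-FosDCh libraries. Library by library the share was 23.9, 9.56, 14.7 and 12.6% in contralateral, 11.6, 5.86 and 12.1% in c-FosWT DMM, and 13.5, 6.23, 23.5 and 19.3% in labelled c-FosDCh libraries, so the groups overlapped. Col1a1, the main collagen gene of bone and fibrous tissue, held more than all 7 in each library on this length, at 47.8 ± 5.62, 58.5 ± 4.60 and 38.4 ± 14.6%. Col10a1, the collagen gene of hypertrophic chondrocytes, held 6.32 ± 1.42, 2.58 ± 1.69 and 16.6 ± 10.4%. In libraries 3 and 4 labelled c-FosDCh its share of 25.8 and 25.3% exceeded that of the 7 cartilage collagen genes together. By the longest coding transcript both orders turned in these libraries: the 7 genes held 28.7 and 24.1%, more than Col1a1, and Col10a1 held 19.0 and 18.9%. Summed osteoblast and osteocyte markers, which include Col1a1, ranged from 23439 to 33237, 32669 to 36032 and 18126 to 56634 CPM in the 3 groups; their part in these shares was not tested.

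Ratios between genes of a library do not depend on how the library is scaled. For 10 ratios in 3 comparisons, the log2 ratio of CPM was tested with an exact two-sided permutation test, adjusted over the 30 tests with the Benjamini-Hochberg method. The smallest p that 3 against 4 or 4 against 4 libraries can give is 0.0286, and none of the 30 passed after adjustment. In 6 of them the groups did not overlap, each with an exact p = 0.0286 (adjusted p = 0.143, permutation test). All of these but Col2a1/Acan against contralateral were between the DMM groups. Of single genes, 33% did not overlap between the DMM groups, and 4.4% between libraries labelled c-FosDCh and contralateral. The share over all pairs of genes is not given here, so the 6 cannot be set against a background of ratios.

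The ratio of Col9a1 to Col9a2, chains of the same trimer, was 0.12, -0.38 and -0.62 (log2) in c-FosWT DMM libraries and -2.44, -1.43, -1.88 and -2.53 in libraries labelled c-FosDCh. In contralateral libraries it ran from -2.52 to 0.39, across both. The DMM groups differed by -1.78 in Col9a1/Col9a2, by -2.06 in Col9a1/Col9a3 and by -2.02 in Col9a1/Col2a1, 3 of the 6 ratios without overlap. Col9a2/Col9a3, by contrast, lay between -0.83 and 0.03 in all 11 libraries. It differed by 0.40 between c-FosWT DMM and contralateral (exact permutation p = 0.0571, adjusted p = 0.245) and by -0.28 between libraries labelled c-FosDCh and c-FosWT DMM (exact permutation p = 0.229, adjusted p = 0.551).

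The type XI ratio Col11a1/Col11a2 was -0.36 ± 0.22 in contralateral, -0.58 ± 0.39 in c-FosWT DMM and -0.45 ± 0.16 in labelled c-FosDCh libraries (log2). Its differences of -0.22, 0.14 and -0.08 in the 3 comparisons were all within the SD of the c-FosWT DMM group (adjusted p from 0.596 to 0.704, exact permutation test). Over single libraries the ratio spanned 0.886 log2 units (1.85-fold), beside 1.93-fold for Col11a1 and 1.73-fold for Col11a2 alone. Per length, Col11a1 made up 29.6 ± 3.22, 26.7 ± 5.34 and 28.4 ± 2.21% of the type XI pair. Col11a1/Col5a1, the ratio to the type V chain that can join Col11a1 in mixed fibrils, had differences between -0.36 and -0.12 in the 3 comparisons (lowest adjusted p = 0.596, exact permutation test).

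Col27a1/Col2a1 was -3.75, -3.38 and -3.91 (log2) in c-FosWT DMM libraries and -2.95, -2.82, -2.84 and -3.06 in libraries labelled c-FosDCh, a difference of 0.76 without overlap. Contralateral libraries spread over both groups, from -3.76 to -2.46.

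Col2a1 was also set against Acan, the gene of the aggrecan core protein that fills the space between fibrils. The log2 levels of both genes had a Pearson r of 0.81 over the 11 libraries. The ratio Col2a1/Acan was 1.82, 2.30 and 2.17 (log2) in c-FosWT DMM libraries. It was 0.74, 0.45, 0.15 and 0.37 in libraries labelled c-FosDCh, and 1.93, 0.85, 1.12 and 1.501 in contralateral libraries. The libraries labelled c-FosDCh lay below all libraries of both other groups, by -1.67 against c-FosWT DMM and -0.92 against contralateral in the mean. Acan itself rose by 2.43 ± 0.53 (SE, edgeR adjusted p = 0.0332) between libraries labelled c-FosDCh and c-FosWT DMM. The Col2a1 value of 0.76 was also above 0 but did not pass. Neither ratio difference passed after adjustment (adjusted p = 0.143, exact permutation test). The erythroid and granulocyte sums of the same groups are given above, and their part in these ratios was not tested.

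**Figure D4:**
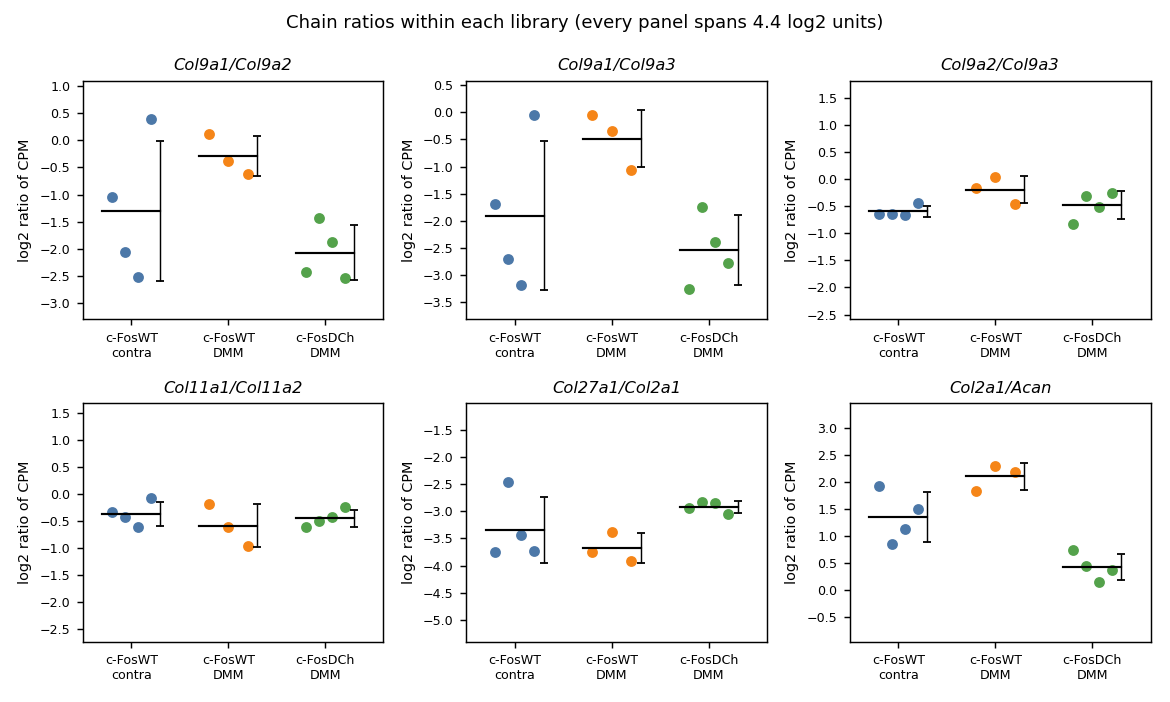
Log2 ratios of CPM for 6 of the 10 gene pairs in each of the 11 libraries; points are libraries, lines are group means, error bars are 1 SD, and every panel spans the same number of log2 units. The DMM groups do not overlap for Col9a1 over Col9a2 or Col9a3, for Col27a1 over Col2a1, or for Col2a1 over Acan, and Col11a1 over Col11a2 overlaps in all groups.

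Correlations of log2 CPM over the 11 libraries show the same grouping. They are a description without a test, since the libraries share their cell makeup and 6 come from 3 animals. Pearson r was 0.93 between Col2a1 and Col9a3, 0.92 between Col2a1 and Col9a2 and 0.945 between Col9a2 and Col9a3. Col9a3 was the gene most like Col9a2 of the 14374 genes ranked, and the reverse held too. After subtracting group means these values were 0.91, 0.91 and 0.95, so they did not rest on the differences between groups. Col11a1 had r = 0.87 with Col9a2, and Col11a2 r = 0.83 with Col2a1. Between the type XI partners r was 0.69.

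Col9a1 had r = 0.42 with Col9a2, 0.25 with Col9a3, 0.21 with Col2a1, -0.04 with Col11a2 and -0.25 with Col27a1. Leaving out predicted and clone-based symbols, its 3 most alike genes were Scyl2 (0.87), Syt8 (0.855) and Ap3s1 (0.85), none of them a matrix gene. With the summed chondrocyte markers it had r = -0.26, where the other members had 0.72 to 0.97. Single markers of that sum differed. Matn3, Cnmd, Matn1 and Epyc were, like Col9a1, highest in contralateral library 4 and c-FosWT DMM library 1, and the other markers of the list were not. Matn3 had 138 and 95.1 CPM in these libraries and 0.07 to 4.07 CPM in those labelled c-FosDCh. Contralateral libraries 2 and 3 were within that low range too, at 0.71 and 1.85 CPM. After subtracting group means the r values of Col9a1 were 0.69 with Col9a2, 0.61 with Col11a1, 0.57 with Col9a3 and 0.52 with Col2a1, beside 0.62 for Col11a1 with Col11a2. With Col11a2 and Col27a1 they were 0.11 and 0.19.

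Col27a1 had its highest correlations outside the cartilage collagen set. It had r = 0.99 with Wwp2, a ubiquitin ligase gene of cartilage, 0.97 with Sox9, 0.96 with Sox5, 0.70 with Sox6, 0.97 with Acan and 0.96 with Itga10, a collagen receptor gene of chondrocytes. With Col10a1 it had r = 0.93. With the summed tendon and ligament markers (6 genes, Tnmd at 0 in a library) it had r = 0.94, beside 0.97 with the chondrocyte sum. The tendon and ligament sum ranged from 933 to 1732 CPM in contralateral, 443 to 1081 in c-FosWT DMM and 1572 to 2319 in labelled c-FosDCh libraries. Under the same limit on symbols, here and for the members below, the most alike genes of Col27a1 were Dixdc1 (0.99), Wwp2 and Dhx58os (0.99). With Col2a1 the value was 0.80, at rank 2680 of 14374. The most alike genes of the remaining members were Swi5 for Col2a1 (0.915, after Col9a3 and Col9a2), Cops8 for Col9a2 (0.92), Tceal1 and Ccn6 for Col9a3 (0.93 each), Rnf13, Erp44 and Zfp931 for Col11a1 (0.96, 0.95 and 0.95) and Zbtb11os1, Srd5a1 and Dtd2 for Col11a2 (0.92, 0.92 and 0.91).

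**Figure D5:**
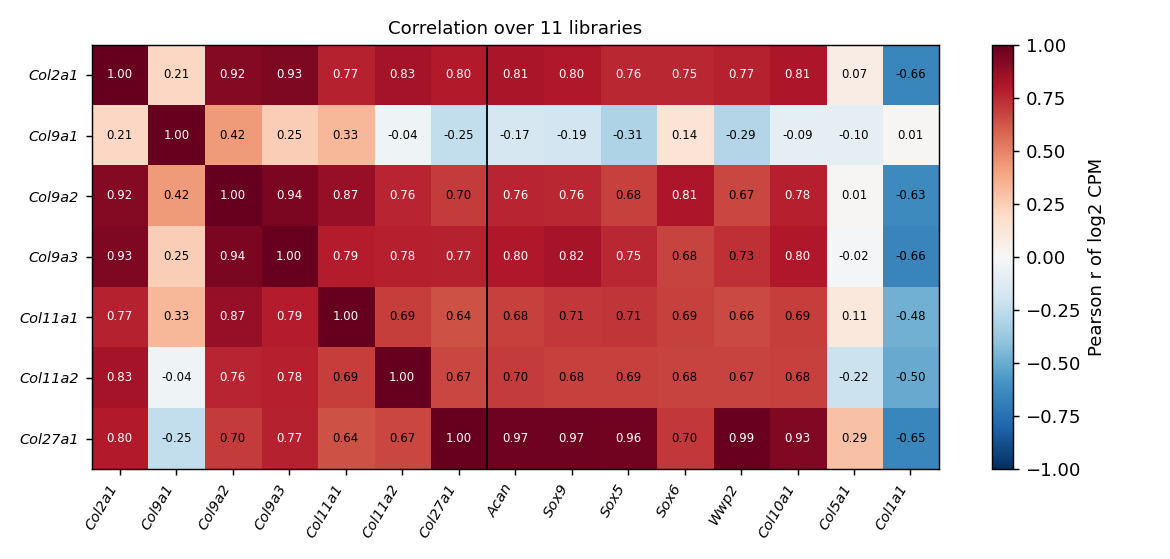
Pearson r of log2 CPM over 11 libraries between the 7 cartilage collagen genes (rows) and, as columns, the members and other genes named in the text; no test is attached. Col2a1, Col9a2 and Col9a3 have values of 0.92 to 0.945 with each other, and Col9a1 has the lowest values with the other members (-0.25 to 0.42).

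The genes that make, process and bind these collagens were followed as lists, chosen with earlier results of these data known and so described by counts only. Beside these counts, edgeR called 10.6% of all genes tested higher in the comparison of the DMM groups. Between libraries labelled c-FosDCh and c-FosWT DMM, 4 of 7 regulators of cartilage collagen genes rose in edgeR's test (median log2 fold change 1.30 over the list), among them Sox9 (2.44 ± 0.48, SE, adjusted p = 0.0332), Sox5 (1.76 ± 0.40) and Wwp2 (1.63 ± 0.35). Sox6 had 0.34 ± 0.25 (edgeR adjusted p = 0.324). Of 21 genes for procollagen modification and folding, 15 rose (median 0.88), including P3h1, a prolyl 3-hydroxylase (0.83 ± 0.15), Plod1, a lysyl hydroxylase (0.83 ± 0.16), and P3h3 (1.04 ± 0.21). Of 12 genes for propeptide removal and cross-linking, 4 rose (median 0.73), with Pcolce2 and Pcolce, enhancers of procollagen C-proteinase, at 1.91 ± 0.37 and 0.87 ± 0.19, and Loxl3, a lysyl oxidase relative, at 1.33 ± 0.29. No gene of these lists was called lower. Of the 12 genes for propeptide removal and cross-linking, 9 had a log2 fold change above 0. Adamts14 (-0.334), Loxl1 (-0.326) and Bmp1 (-0.115) were below 0 and did not pass.

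On the outside of the fibril, 8 of 16 fibril-binding matrix proteins rose in edgeR's test (median 0.80), against 10.6% of all genes tested. They included the small proteoglycan genes Dcn (2.17 ± 0.48) and Prelp (1.96 ± 0.48). Of 7 collagen receptor genes 2 rose, Itga10 (1.70 ± 0.40) and Ddr1, a receptor kinase (0.74 ± 0.18). Of 7 collagen-cleaving enzyme genes 0 passed, and the lowest p belonged to the gelatinase gene Mmp9, at -1.13 ± 0.39 (SE, edgeR adjusted p = 0.0683), beside the granulocyte and erythroid sums given above; their part in that value was not tested.

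Among collagens outside the cartilage set, 1 of 7 other fibrillar genes rose, Col24a1 (1.01 ± 0.23, edgeR adjusted p = 0.0332). Col5a1 (0.51 ± 0.28), Col5a2 (0.50 ± 0.20) and Col1a1 (-0.34 ± 0.48) did not pass. Of 6 other fibril-associated genes 2 rose, Col20a1 (1.10 ± 0.29) and Col16a1 (0.85 ± 0.25). Of 22 network, membrane and other collagens 10 rose (median -0.001), among them Col10a1 (2.67 ± 0.65, edgeR adjusted p = 0.0349), the basement membrane genes Col4a5 (1.77 ± 0.35) and Col4a4 (2.36 ± 0.51), and Col8a2 (1.35 ± 0.29). Against these counts stand 1 of 7 cartilage collagen genes and 10.6% of all genes tested; the differences between lists were not tested. All of these calls, like that of Col27a1, were lost when the marrow score was a covariate, where edgeR called 0 genes of the whole table.

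In the other comparisons 0 genes of these lists passed edgeR's test, as 0 of all genes did. Between c-FosWT DMM and contralateral the smallest p in each list belonged to Wwp2 (-1.14 ± 0.34), Fkbp10, a collagen chaperone (-0.70 ± 0.19), Pcolce2 (-1.51 ± 0.36), Bgn (-0.64 ± 0.19), Ddr1 (-0.62 ± 0.18), Mmp3 (-0.90 ± 0.59), Col24a1 (-0.71 ± 0.22), Col20a1 (-0.75 ± 0.28) and Col4a5 (-1.44 ± 0.34), with edgeR adjusted p from 0.182 to 0.402. Between libraries labelled c-FosDCh and contralateral they belonged to Sox9 (0.92 ± 0.41), Plod1 (0.40 ± 0.14), Loxl3 (0.64 ± 0.26), Matn2 (0.58 ± 0.18), Itga10 (0.57 ± 0.35), Mmp9 (-0.74 ± 0.36), Col24a1 (0.29 ± 0.20), Col16a1 (0.62 ± 0.23) and Col10a1 (1.45 ± 0.56), with edgeR adjusted p from 0.584 to 0.639.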

How the data were processed

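Per the labels' protocols, poly(A) RNA of scalpel-dissected cartilage was made into directional libraries and sequenced as single reads of 75 bases. The submitters' processing notes name bcl2fastq 2.19.1.403, STAR 2.6.1a, RSEM, DESeq2 1.22.2 and GRCm38; no source used states the annotation release or the strand counted. The authors deposited raw counts per gene for each library, and 55240 of 55421 identifiers matched GENCODE M21 (54673 with the same version).

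Members and gene lists were chosen with earlier results of these data known. Groups came from the labels; libraries labelled c-FosDCh were numbered in accession order. No replicates agreed within sampling noise (lowest chi-square per degree of freedom 31.03). Counts were fitted in edgeR 4.0.16 (R 4.3.3; filterByExpr, 18125 genes, TMM, robust quasi-likelihood, 11 libraries, group as the only term, common biological coefficient of variation 0.315) and called at a Benjamini-Hochberg adjusted p under 0.05 over all genes tested. SEs are log2 fold changes divided by the square root of F. Log2 CPM used a prior count of 2. Levels per length are TMM-scaled CPM per kilobase of merged exons; this scale was chosen over one normalized to the sum over genes after values on both had been seen. Ratios were tested with exact permutations, and alternatives used limma 3.58.1 and DESeq2 1.42.0. Scripts were tested on simulated data with known changes. Python 3.11.15, pandas 2.3.3 and matplotlib 3.10.9 made tables and figures.

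Named genes were the members, 8 fixed genes, the 3 called genes with the lowest p in each list and comparison (1 where none was called), and the 3 genes most correlated with each member among genes whose mean log2 CPM was 1 or more. Genes with predicted or clone-based symbols were left out of these most alike genes. They were counted in the ranks of members among 14374 genes. The c-FosWT libraries pair by animal, from their titles; deviations from group means of same-animal knees correlated at -0.17, -0.18 and 0.25.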

Additional observations from a re-analysis of the deposited data

Results flagged for a closer look

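Among 34 groups of 4 libraries checked (levels and ratios of the members), 1 held a library far from the rest, where chance flags about 1 in 20 groups. The log2 ratio of Col9a2 to Col9a3 was -0.446 in contralateral library 4, against -0.656 to -0.638 in the other 3 contralateral libraries, a gap of 0.915 of the group's range. The same library had the highest Col9a1 level of the study (205 CPM) and the lowest chondrocyte and highest erythroid sums of its group (13727 and 6655 CPM). The chondrocyte markers Matn3, Cnmd, Matn1 and Epyc were by contrast highest of the group in this library (138, 105, 2.18 and 6.28 CPM), and the other markers of the list were not. The log2 Col9a1/Col9a2 ratio of this library, 0.39, was the highest of the 11 libraries.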

How the results depend on the processing

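Direction and side of the threshold held for 405 alternative values of the members' log2 fold changes (39 turned sign and 11 no longer passed) and for 54 counts of called members (11 were lower). Of the ratio values 253 kept their direction and 7 turned sign; whether they pass says nothing about stability, since the smallest p of these designs could hardly pass after adjustment over 30 tests. The Col27a1 call between libraries labelled c-FosDCh and c-FosWT DMM was lost (0 called) with only these groups fitted, with the marrow or muscle score as a covariate, and, chosen after seeing the data, without the 2 muscle-rich libraries or without libraries 3 and 4 labelled c-FosDCh. Leaving out 1 library in turn gave counts of 0 to 1, with 0 without contralateral library 1 or 2, c-FosWT DMM library 2 or 3, or library 3 or 4 labelled c-FosDCh; the log2 fold change stayed between 1.30 and 1.74. All genes called numbered 2616, against 1443 with no filter, 0 with only these groups fitted, with either covariate and in both reduced sets, and 0 to 4626 leaving out 1 library. The cause of these changes was not tested.

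The replicate block over the 3 pairs of knees called 0 members (Col27a1 -1.003, edgeR adjusted p = 0.214) and changed no call. Signs turned only for values that had not passed. Col9a1 between the c-FosWT groups turned to -0.20 (muscle covariate), -0.93 (without muscle-rich libraries) and -0.14 (3 pairs, no block). Between the DMM groups Col11a1 and Col11a2 turned to -0.042 and -0.031 (marrow covariate), and Col9a2 and Col11a1 to -0.16 and -0.004 (without libraries 3 and 4 labelled c-FosDCh). Between libraries labelled c-FosDCh and contralateral, Col2a1, Col9a2 and Col9a3 turned to -0.071, -0.057 and -0.171 (library totals), -0.14, -0.15 and -0.17 (marrow), -0.07, -0.029 and -0.146 (without muscle-rich libraries) and -0.43, -0.54 and -0.52 (without libraries 3 and 4), Col9a3 also to -0.008 (muscle) and -0.047 (limma-voom), and Col11a2 to 0.005 (limma-voom).

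Leaving out 1 library, Col9a1 between the c-FosWT groups ranged from -0.61 to 1.17. Against contralateral, libraries labelled c-FosDCh gave Col2a1 -0.07 to 0.43, Col9a2 -0.094 to 0.32, Col9a3 -0.25 to 0.22, Col11a1 -0.16 to 0.033 and Col11a2 -0.089 to 0.12. Ratios that turned were Col11a1/Col11a2 (-0.057 to 0.34 between the DMM groups, -0.16 to 0.013 against contralateral), Col11a1/Col2a1 (-0.071 to 0.65 between the c-FosWT groups), Col11a2/Col2a1 (-0.35 to 0.024 against contralateral) and Col11a1/Col5a1 (-0.40 to 0.13 between the DMM groups). Dropping a library also raises the smallest p that the permutations can give. Dividing by the longest transcript moved 11 of the mean levels per length by more than 1 SD.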
